A study of Mus musculus with 2 samples.

Results

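Psca+ cells are the 204 control cervix cells, of 4760 control cells that passed the cell filter, that carried Psca together with the columnar keratins Krt8 and Krt18. Each had at least 3 unique molecular identifiers (UMIs, 1 per captured transcript) of Psca, at least 3 of Krt8 and Krt18 together, and none of the neutrophil genes Csf3r, Cxcr2 and Retnlg. They made up 4.29% of the control cells [3.73 to 4.90]. The cells were chosen by the measured UMIs of these genes, so the levels of these genes are given as a description of the choice and not as results. Psca (prostate stem cell antigen) encodes a small membrane-anchored protein of the Ly6 family that is found in several lining epithelia, and Krt8 and Krt18 form the keratin filaments of columnar, or luminal, cells.

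Single-cell RNA sequencing was done on cervix from ovariectomised C57BL6/129 female mice, operated on at 7 to 8 weeks of age, in 2 groups with 1 library of 9 pooled mice each. Both groups had lost their ovaries and had 2 weeks to recover. The control mice were left untreated over the following 15 days. The progesterone mice first had estradiol (E2) injected under the skin in corn oil at 100 µg daily on 2 days, and then carried a 25 mg pellet designed to give off progesterone for 21 days at an estimated 1 mg daily. Estradiol, the injections, the pellet and progesterone all differed between the groups and cannot be told apart. The study's title concerns Olfm4 as a label of luminal progenitors and of the secretory lineage that arises from them. No animal could be followed within a pool, so there was no replicate and no test between sets of cells. Intervals in square brackets are 95% intervals for counting error only, and they do not cover differences between mice.

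The cervix is lined by stratified squamous epithelium, with Krt5 and Krt14 in its basal layer, and by columnar epithelium towards the uterus that secretes mucus under the control of sex hormones. Mucosal lining cells also defend the tract: they release iron-binding proteins such as lactoferrin and lipocalin 2, protease inhibitors, and chemokines that draw in neutrophils. Small proline-rich (Sprr) proteins, by contrast, are cross-linked into the cornified envelope of squamous cells.

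Psca+ cells were compared with 3 sets of cells. The basal squamous set was the 2674 control cells with at least 10 UMIs of Krt5 and Krt14 together and no Psca UMI. The mucous set was the 1768 progesterone cells with at least 10 UMIs of Muc5b, Tff1 and Agr2 together. The third set was the 65 of 9221 progesterone cells that met the rule of the Psca+ cells, a share of 0.705% [0.544 to 0.898]. Of these 65 cells, 17 were also in the mucous set. The median depth was 5649.5 UMIs in Psca+ cells, 5404 in the basal squamous set, 5251.5 in the mucous set and 8703 in the 65 progesterone cells. The control library had 5368 barcodes and the progesterone library 10853. The libraries shared 19 barcodes, none of them a Psca+ cell. Levels are UMIs per 1000000 UMIs of the set (CPM), and a ratio divides 2 such levels. The kit counts 1 end of each transcript, so CPM carries no term for gene length. A gene is called higher or lower where its ratio is past 2-fold, over genes with at least 20 UMIs in the 2 sets together.

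The label of luminal cells was checked against 8 columnar markers (Krt7, Krt8, Krt18, Krt19, Epcam, Cldn3, Cldn4 and Cldn7), 2 of which are genes of the rule. All 8 reached 50 CPM in Psca+ cells, but 6 did so in the basal squamous set and 7 in fibroblast droplets of the same library, so that limit did not set the cells apart. The summed level of the 8 was 10698 CPM in Psca+ cells, 1085 CPM in the basal squamous set and 1758 CPM in the fibroblast droplets. Squamous RNA was there as well. Of 8 suprabasal squamous markers 6 reached 50 CPM, against 7 in the basal squamous set. Their summed level was 7112 CPM against 6019 CPM in the basal squamous set. Krt13 made up most of that sum in Psca+ cells, and without Krt13 the sum was lower than in the basal squamous set. Of the 204 cells, 93 had at least 10 UMIs of Krt5 and Krt14. The stem and basal-layer genes Trp63, Col17a1 and Itgb4 were at 12.96, 18.3 and 25.2 CPM, against 108, 168 and 116 CPM in the basal squamous set. The cells are therefore called Psca+ by their rule and not by a cell type. The same RNAs were also read in droplets that should lack them: 75 control fibroblast droplets, with a median of 1049 UMIs, held 93.01 CPM of Psca, 316 of Krt8, 967 of Krt5 and 1963 of Krt14. Markers of T and NK cells were at 0 in Psca+ cells for 6 of 6 genes, and 4 of 6 fibroblast markers were at 0, with 4 UMIs in all for the other two.

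The 7 genes given as markers of the cells were chosen with earlier results of these data known. Their higher levels in Psca+ cells are therefore a description and not a test. Psca itself ranged from 3 to 388 UMIs per cell with a median of 16, and it belongs to the rule. Ltf, which encodes lactoferrin, stood at 21922 CPM [21669.7 to 22177] in Psca+ cells, 651 CPM [639 to 664] in the basal squamous set and 1229.9 CPM [1208 to 1252] in the mucous set. Krt19, a columnar keratin, stood at 2935 CPM [2843 to 3029], 108 CPM [103 to 113] and 649 CPM [633 to 666] in the same order. Both genes were high in the Psca+ cells alone among these 3 sets, and in each the interval lay far from the others. Lcn2, which encodes the iron-capturing lipocalin 2, was 13.96-fold [13.6 to 14.3] higher than in the basal squamous set and 941-fold [773 to 1158] higher than in the mucous set. Prss27, a membrane serine protease, was 219-fold [179 to 270.3] and 171-fold [137 to 217] higher. Lypd2, a Ly6 family gene near Psca, had the smallest contrast of the 7 with the mucous set. In Psca+ cells it was 2.33-fold [2.23 to 2.43] higher than in the mucous set and 11.97-fold [11.3 to 12.6] higher than in the basal squamous set. The markers did not cover the cells evenly. After every cell was thinned to 2000 UMIs, which left out 10 Psca+ cells, 93.3% of them [88.8 to 96.4] had an Ltf UMI, 84.0% a Krt19 UMI [78.1 to 88.9], 58.2% an Lcn2 UMI [51.0 to 65.3] and 21.6% a Slurp1 UMI [16.1 to 28.1]. Without thinning these shares of Ltf, Krt19, Lcn2 and Slurp1 were 94.6, 92.6, 60.8 and 35.3%. In fibroblast droplets, which should lack the genes, the unthinned shares of Ltf, Krt19, Lcn2 and Slurp1 were 17.3, 13.3, 4.00 and 1.33%. Those shares are not at like depth, since the droplets had a median of 1049 UMIs and Psca+ cells 5649.5. Of the 75 droplets 4 had at least 10 UMIs of Krt5 and Krt14, and 5 were among the highest doublet scores.

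**Figure D1:**
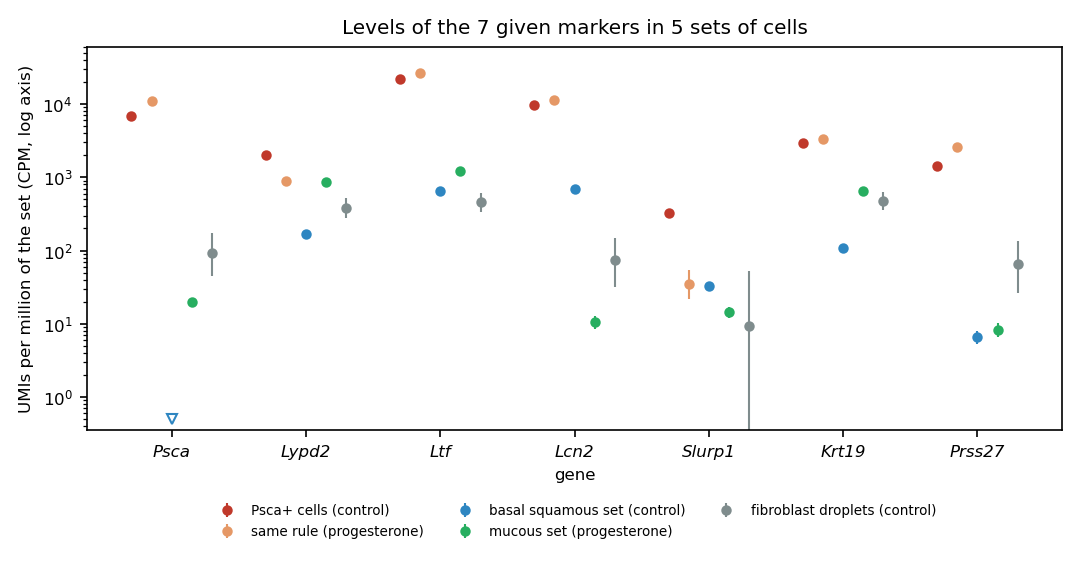
Levels of the 7 given markers in 5 sets of cells, as UMIs per 1000000 UMIs of the set on a log axis, with exact 95% Poisson intervals for counting error. An open triangle marks a set with no UMI, which for Psca in the basal squamous set follows from the rule of that set. Lcn2 and Prss27 are near 10 CPM in the mucous set and above 1000 CPM in both sets of Psca+ cells, while Slurp1 separates the 2 sets of Psca+ cells.

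Psca, Slurp1 and Lypd2 are neighbours on mouse chromosome 15 (build mm10), at chr15:74714839-74717069, chr15:74724318-74728034 and chr15:74732247-74734329, within a cluster of Ly6 genes that also holds Ly6d, Ly6k and Ly6a. Of 13 further Ly6 family genes with at least 20 UMIs, 9 were at least 2-fold higher in Psca+ cells than in the basal squamous set and 1 was at least 2-fold lower, where 13.4% of all 11613 genes tested were higher and 20.6% lower. Their median log2 ratio was 1.30, against -0.13 over all genes. Slurp1, which encodes a secreted Ly6 protein of keratinocytes, stood at 329 CPM [299 to 362], which was 10.1-fold [8.87 to 11.5] above the basal squamous set and 22.9-fold [18.9 to 27.98] above the mucous set. Ly6g6c was 30.5-fold [23.7 to 39.5] above the basal squamous set. Ly6d was high in both control sets, with 5060.1 and 3926 CPM, and at 424 CPM in the mucous set. Against the mucous set, 8 of 12 Ly6 genes were higher and 1 lower, with a median log2 ratio of 1.55; 6.88% of all 11349 genes tested were higher, 26.4% lower, and the median over all genes was -0.38. These shares and medians over all genes are the background for the counts of every list that follows. Psca+ cells held 1312043 UMIs, the basal squamous set 15513784 and the mucous set 9611136. A sparse gene can therefore reach the minimum of 20 UMIs through the larger set alone. Where the interval bound had to pass 2-fold, 448 of 11613 genes were lower than in the basal squamous set. Against the mucous set 557 of 11349 were lower by that bound.

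Columnar genes separated Psca+ cells from the basal squamous set more than from the mucous set. Of 14 columnar genes outside the rule, 13 were at least 2-fold higher than in the basal squamous set and none lower, with a median log2 ratio of 2.73. The tight junction gene Cldn3 was 33.05-fold [28.7 to 38.1] higher, and the keratin Krt7 7.13-fold [6.81 to 7.47] higher. Set against mucous cells 7 of 14 were higher, 2 lower and 5 within 2-fold, with a median of 1.02. Krt7 and Cldn4 were 9.14-fold [8.65 to 9.65] and 5.29-fold [4.02 to 6.93] higher there. A pair of columnar genes ran the other way against the mucous set: Cldn10, a claudin that forms ion-selective channels, was 19.6-fold [12.05 to 34.4] lower, and the adhesion gene Epcam 2.06-fold [1.93 to 2.19] lower. Krt20, a keratin of terminally differentiated lining cells, stood at 46.5 CPM [35.6 to 59.7] in Psca+ cells and at 0.312 CPM [0.0644 to 0.912] in the mucous set.

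Genes of antimicrobial and iron defence were abundant in Psca+ cells. Of 15 such genes tested against the basal squamous set, 14 were at least 2-fold higher and 1 lower, with a median log2 ratio of 3.82. Against the mucous set 9 of 16 were higher and 2 lower, with a median of 3.35. Ltf alone took up 21922 of every 1000000 UMIs of Psca+ cells. Wfdc2, a whey acidic protein family gene, stood at 6051 CPM in Psca+ cells and 6931 in the mucous set, and so did not separate them, while in the basal squamous set it was at 243 CPM. Pigr, which carries IgA across epithelium, was alike: 421 CPM in Psca+ cells, 352 in the mucous set and 5.29 in the basal squamous set. The defensin Defb1 was 23.6-fold [19.7 to 28.4] above the basal squamous set and 77.3-fold [54.3 to 113] above the mucous set. Reg3g, a lectin that binds bacteria, also passed the 2-fold limit, but its 46 UMIs all came from 1 cell.

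S100a8 and S100a9, whose proteins pair into the antimicrobial calprotectin, were high in Psca+ cells at 3075 and 4739.9 CPM. The basal squamous set held 217 and 355 CPM of S100a8 and S100a9, and the mucous set 42.03 and 69.7. Neutrophils are the best known source of these transcripts, and 324 control neutrophil droplets held 11024 and 18602 CPM. Of the 7 neutrophil markers in Psca+ cells, Csf3r, Cxcr2 and Retnlg were at 0 by the rule and Mmp9 and Clec4d at 1.52 CPM each, against 239 and 499 CPM in the neutrophil droplets. Il1b stood at 7.62 CPM and Lyz2 at 3.05 CPM in Psca+ cells, against 2315 and 448 CPM in the neutrophil droplets. The rule left out every cell with a Csf3r, Cxcr2 or Retnlg UMI, and the neutrophil droplets were chosen by those genes. Low levels of other neutrophil genes can follow from that choice, and the source of the S100a8 and S100a9 RNA was not tested. In Psca+ cells 5 of the highest cells held 40.4% of all S100a9 UMIs. When cells with more than 2 UMIs of S100a8 and S100a9 were left out, both genes fell below the basal squamous set by that construction, and Sprr2b changed its direction with them, to a log2 ratio of -0.43.

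Chemokines that attract neutrophils, and related cytokines, were higher as a list. Of 13 tested against the basal squamous set 12 were at least 2-fold higher and 1 lower, with a median log2 ratio of 2.83. Next to the mucous set 7 of 11 were higher and 1 lower, with a median of 3.36. Cxcl5, a ligand of the neutrophil receptor Cxcr2, was at 3676 CPM [3573 to 3781] in Psca+ cells, 185 CPM [178 to 192] in the basal squamous set and 90.6 CPM [84.7 to 96.8] in the mucous set. Ppbp (Cxcl7), a second Cxcr2 ligand that lies near Cxcl5 on chromosome 5, was 484-fold [349 to 689.9] above the basal squamous set and 1584-fold [767 to 3947] above the mucous set. Cxcl15, a lung-type chemokine, ran against the list: it stood at 46.5 CPM in Psca+ cells and 388 CPM in the mucous set, 8.35-fold [6.49 to 10.9] lower. Il1b was the gene of the list that was lower than in the basal squamous set, 5.66-fold [3.06 to 11.9]. The difference was lost, with a log2 ratio of 0.040 [-0.36 to 0.40], when barcodes with neutrophil genes were let in. The basal squamous set had no limit on neutrophil genes. Of 324 control neutrophil droplets, 78 had at least 10 UMIs of Krt5 and Krt14. The lower Il1b therefore cannot be told apart from the rule of the Psca+ cells.

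Many proteases and their inhibitors were higher. Of 24 tested against the basal squamous set 16 were at least 2-fold higher and 3 lower, with a median log2 ratio of 1.57, and against the mucous set 11 of 22 were higher, 1 lower and 10 within 2-fold, with a median of 2.30. Prss22, a tryptase-like serine protease, was 107-fold [76.2 to 153] above the basal squamous set and 66.1-fold [47.2 to 95.1] above the mucous set. Spink12, of the Kazal inhibitor family, had 3435 UMIs in Psca+ cells and 3 in the mucous set, a ratio of 8387-fold [2868 to 40692]. Spink5, the inhibitor of skin kallikreins, was within 2-fold between Psca+ cells and the basal squamous set, with 1507 and 1287 CPM, and 34.1-fold [30.7 to 37.9] above the mucous set. The maspin gene Serpinb5 was 3.08-fold [2.58 to 3.71] lower than in the basal squamous set.

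Cornified envelope genes gave the widest contrast with the mucous set, and Sprr2d and Sprr2f were the leading ones. Sprr2d stood at 12349 CPM [12160.0 to 12541] in Psca+ cells, 577 CPM [565 to 589] in the basal squamous set and 0.728 CPM [0.293 to 1.501] in the mucous set, where it had 7 UMIs in all. Sprr2f stood at 8690.3 CPM [8531 to 8851], 1834 CPM [1812 to 1855] and 16.02 CPM [13.6 to 18.8]. Among these 3 sets both were highest in Psca+ cells, and both were near absent from the mucous set. The level was not particular to Psca+ cells. Sprr2d was higher still in the 106 control cells, described below, that had Psca but fell short of the keratin limit. Within Psca+ cells clusters 1, 3 and 4, also described below, held 22.5, 45.2 and 32.3% of the Sprr2d UMIs. Sprr2d and Sprr2f are near-identical copies in places, so reads of 1 may have been counted for another, and the split among them is uncertain. The 250 bases before the start of each are shown because both genes were high in the same cells. They come from the RefSeq promoter table (build GRCm38.p6, plus strand), for Sprr2d at chr3:92338890-92339139 and for Sprr2f at chr3:92364937-92365186. Capitals mark 3 motifs that were searched on both strands and chosen after the sequences had been seen: TGAGTCA, the AP-1 motif, ATTTGCAT, the octamer bound by POU factors, and TATAAA, the TATA box.
Sprr2d: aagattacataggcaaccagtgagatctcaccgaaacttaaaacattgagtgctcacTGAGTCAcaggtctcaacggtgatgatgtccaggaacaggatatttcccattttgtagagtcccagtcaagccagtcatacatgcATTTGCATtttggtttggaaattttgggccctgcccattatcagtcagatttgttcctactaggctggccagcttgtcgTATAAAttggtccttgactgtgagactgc
Sprr2f: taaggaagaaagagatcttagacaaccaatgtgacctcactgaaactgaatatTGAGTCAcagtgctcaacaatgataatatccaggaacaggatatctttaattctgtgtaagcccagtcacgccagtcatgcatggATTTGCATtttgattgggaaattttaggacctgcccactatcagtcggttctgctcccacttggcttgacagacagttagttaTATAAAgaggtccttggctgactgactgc
The motifs begin at -193, -108 and -29 from the start of Sprr2d and at -197, -112 and -29 from that of Sprr2f, in the same order and on the strand of the gene. Of the 10 Sprr2 promoters listed there, 7 held all 3 motifs, namely those of Sprr2b, Sprr2d, Sprr2e, Sprr2f, Sprr2h, Sprr2i and Sprr2k. Over all 32851 promoters, within windows of that length, TGAGTCA was found in 4.46%, ATTTGCAT in 1.60% and TATAAA in 12.4%. The matches are descriptions of letters and not of binding. Of the 7 genes with the motifs, Sprr2i and Sprr2k had 1 UMI each in Psca+ cells, while Sprr2a3, whose promoter held none of the 3, was read in 70 of the 204 cells.

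Of 20 cornified envelope genes tested against the basal squamous set, 12 were at least 2-fold higher and 4 lower, with a median log2 ratio of 1.58. Cnfn (cornifelin) was 84.7-fold [73.5 to 98.03] higher, Crct1 205-fold [141 to 310.0] higher and the fused S100 gene Rptn (repetin) 47.8-fold [35.001 to 66.2] higher, while Krtdap, a gene of differentiating keratinocytes, was 6.69-fold [5.72 to 7.86] lower. Crct1 was read in 35 of the 204 cells, and 5 of them held 72.2% of its UMIs. Against the mucous set 16 of 17 were higher and 1 lower, with a median of 7.31. That median is 6.65 when genes without a UMI in the mucous set are placed at the bound that a floor of 3 counts per set gives. By that floor Cnfn was at least 3831-fold higher and Sprr2b at least 5794-fold higher than in the mucous set. Krt13, a keratin of non-cornified stratified epithelium, was also 3.61-fold [3.502 to 3.72] above the basal squamous set and 3.48-fold [3.37 to 3.59] above the mucous set.

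**Figure D2:**
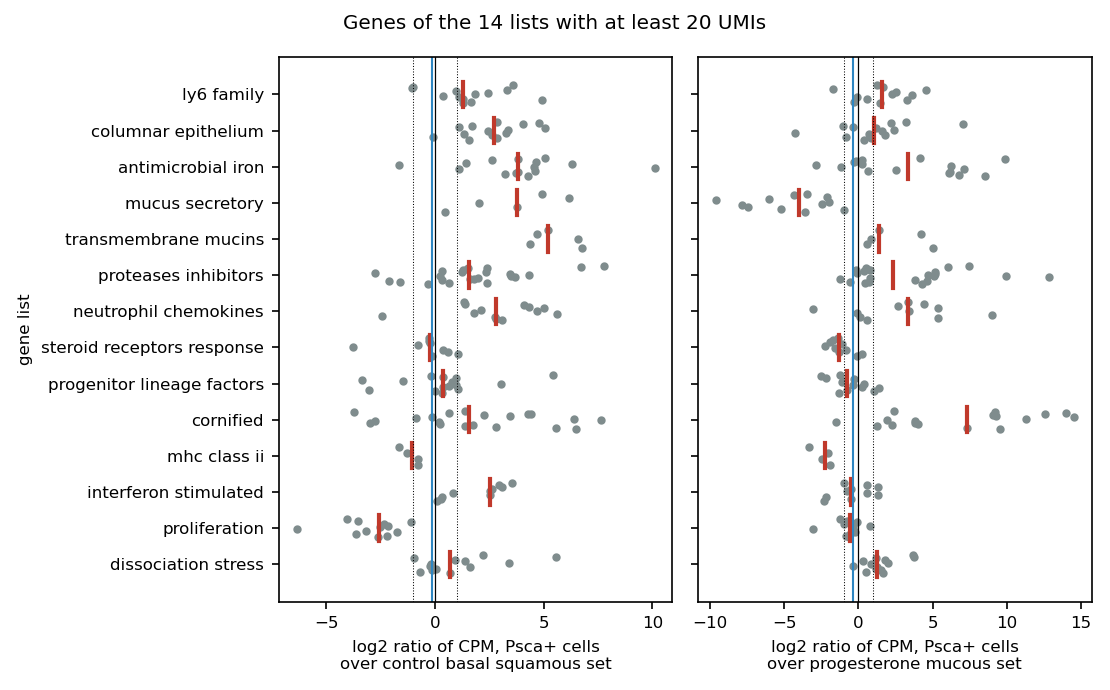
Log2 ratio of CPM in Psca+ cells over the control basal squamous set (left) and over the progesterone mucous set (right), for the genes of 14 lists with at least 20 UMIs in the compared sets together. The log2 ratio has 0.5 counts added to both sums and the 2-fold calls do not, so a point close to a dotted line can fall on its other side. Each point is a gene, the red bar the list's median, the blue line the median over all genes tested and the dotted lines 2-fold. The cornified list has the highest median on the right at 7.31 and the mucus list the lowest at -3.99, and on the left the proliferation list is lowest at -2.57.

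Mucus genes behaved differently in the 2 comparisons. Of 5 genes of mucus assembly outside the rule that could be tested against the basal squamous set, 4 were higher and none lower, with a median log2 ratio of 3.78, at levels that were low next to the mucous set. Over the mucous set all 12 tested were at least 2-fold lower, with a median of -3.99. Clca1, a secreted protein of goblet cells, was 64.6-fold [53.2 to 79.3] lower, and Spdef, the transcription factor of goblet cells, 4.44-fold [3.66 to 5.45] lower. These are averages over unlike cells. In the 23 cells of cluster 5, described below, Clca1 stood at 519 CPM and Spdef at 482 CPM. The sum of Spdef, Galnt6, Clca1 and the rule genes Muc5b, Tff1 and Agr2 was 37529 CPM there and 27079 CPM in the mucous set. In every other cluster of Psca+ cells that sum was 1318 CPM or less. Gp2, Scgb3a1 and Aqp8 had no UMI in Psca+ cells and were at least 131, 38.5 and 28.8-fold lower by the floor of 3 counts. The membrane-bound mucins went the other way. All 5 (Muc1, Muc4, Muc13, Muc16 and Muc20) were at least 2-fold above the basal squamous set, with a median of 5.21, and 3 were above the mucous set. Muc4 and Muc13 stood 18.4-fold [15.7 to 21.6] and 32.2-fold [24.6 to 42.7] above the mucous set.

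Steroid receptors did not set Psca+ cells apart from the basal squamous set. None of 9 receptor and response genes was 2-fold higher and 1, Greb1, was lower, with a median log2 ratio of -0.20. The estrogen receptor gene Esr1 stood at 73.9 CPM [59.95 to 90.2] in Psca+ cells and 90.7 CPM [86.02 to 95.6] in the basal squamous set, and the progesterone receptor gene Pgr at 30.5 CPM [21.8 to 41.5] and 37.6 CPM [34.7 to 40.8], with overlapping intervals in both. Against the mucous set 7 of 10 were lower and none higher, with a median of -1.34. There Esr1 was 2.59-fold [2.11 to 3.21] lower and Pgr 3.27-fold [2.38 to 4.601] lower.

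Among 15 genes of progenitors and lineage factors 3 were at least 2-fold higher and 3 lower than in the basal squamous set, with a median log2 ratio of 0.39, shares not far from the 13.4 and 20.6% of all genes. Olfm4, the progenitor label of the study, was 43.2-fold [37.6 to 49.8] higher, at 707 CPM [663 to 754] against 16.4 CPM [14.4 to 18.5]. In the mucous set it stood at 1680.2 CPM [1654 to 1706], 2.38-fold [2.22 to 2.54] above the average of the Psca+ cells. That average was uneven: cluster 5, described below, held 56.6% of the Olfm4 UMIs of Psca+ cells. Olfm4 stood at 4865 CPM in cluster 5, above the mucous set, while its median was 0 UMIs per cell in clusters 1, 3 and 4. After thinning, an Olfm4 UMI was read in 41.2% of Psca+ cells [34.2 to 48.5], 1.58% of the basal squamous set [1.12 to 2.16] and 53.0% of the mucous set [50.5 to 55.5]. The unthinned Olfm4 share was 51.0% in Psca+ cells and 2.67% in fibroblast droplets, which had a lower median depth. Foxa2, a forkhead factor of glandular epithelium, was 8.17-fold [5.89 to 11.3] above the basal squamous set and 2.15-fold [1.68 to 2.797] below the mucous set. Relative to mucous cells 2 of 13 genes of this list were higher and 6 lower, with a median of -0.74.

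Cell division genes were lower than in the basal squamous set. All 12 tested were at least 2-fold lower there, with a median log2 ratio of -2.57. Mki67 stood at 6.86 CPM against 118, 17.2-fold [9.05 to 37.7] lower, and Ccnb1 had no UMI in Psca+ cells, at least 13.7-fold lower. Against the mucous set 3 of 12 were lower and none higher, with a median of -0.60, a share close to the 26.4% of all genes that were lower. Interferon-stimulated genes were higher than in the basal squamous set in 6 of 10, with a median of 2.53, and in the mucous comparison 2 of 10 were higher and 2 lower, with a median of -0.49. Of the 4 class II genes of antigen presentation that were tested, 2 were lower than in the basal squamous set and 2 within 2-fold, and 4 were lower than in the mucous set, with medians of -1.04 and -2.24. Of 13 immediate-early and heat shock genes, which tissue dissociation can induce, 5 were above the basal squamous set and 9 above the mucous set, with medians of 0.68 and 1.25, so this list moved with both comparisons. Its part in the other differences was not tested.

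By a fixed rule on size, the genes highest in Psca+ cells against the basal squamous set also took in Clca3b, Mal, Plat, S100a7a and Krt23. Clca3b, of the chloride channel accessory family, stood at 795 CPM [747 to 845] against 0.902 CPM [0.493 to 1.51], a ratio of 881-fold [523 to 1617]. Mal, which sorts proteins to the apical membrane, was 258-fold [208 to 324] higher, and Plat, tissue plasminogen activator, 282-fold [126 to 781] higher. Mal was spread over 164 of the 204 cells, whereas Clca3b was read in 57. Among the 12 lowest genes, Krt16, a keratin of activated keratinocytes, was 13.4-fold [12.1 to 14.9] lower, the fatty acid binding protein gene Fabp5 11.8-fold [10.99 to 12.8] lower and the metallothionein gene Mt2 20.4-fold [11.4 to 40.9] lower. Apoe was low against both sets, with 11 UMIs in Psca+ cells: 33.7-fold [18.8 to 67.6] lower than in the basal squamous set and 31.4-fold [17.5 to 62.98] lower than in the mucous set. Among the lowest against the mucous set were also Tesc, with no UMI in Psca+ cells, Hpgds, a prostaglandin D synthase with 1 UMI, and the neurotrophin receptor gene Ntrk2 with 3 UMIs. Hpgds had a ratio of 258-fold [46.3 to 10207] lower and Ntrk2 one of 56.9-fold [19.4 to 276] lower.

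Psca+ cells were not uniform. Clustering the 204 cells without the genes of the rule gave 6 clusters of 64, 43, 28, 27, 23 and 19 cells, numbered 1 to 6. The clusters are described by their leading genes and left unnamed, and since the same genes formed them, their differences carry no test. A finer resolution gave 7 clusters and split up cluster 1 alone. The examples that follow were chosen after their values were seen.

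Clusters 3 and 4 carried 43.8% and 32.8% of the Lcn2 UMIs of Psca+ cells. Cluster 3 was led by Ctgf, Crct1, S100a7a, Clca3b, S100a8 and S100a9. It held 20184 CPM of Psca, 30669.5 of Lcn2 and 39944 of Sprr2d, and had little basal keratin, with 333 CPM of Krt14. Its 28 cells held 73.6% of the S100a9 UMIs, 78.3% of the Clca3b UMIs and 66.1% of the Ppbp UMIs of all Psca+ cells. Their median mitochondrial share was 2.89%, against 5.62% over all Psca+ cells. Cluster 4 was led by Trpv6, an epithelial calcium channel gene, and by Arg1, Lbp, Krt23, Mmp7 and Muc4, with 18786 CPM of Lcn2 and 5898 of S100a9. Cluster 1, the largest, was led by the interferon-induced membrane protein genes Ifitm1, Ifitm3 and Ifitm2 and by Cyp2f2 and Tmem176b. It shared Ltf at 25935 CPM and Lcn2 at 6767 CPM with clusters 3 and 4, but held 663 CPM of S100a9.

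The remaining clusters were nearly without Lcn2. Cluster 5 was led by the mucous genes of the comparison rule, Agr2, Tff1 and Muc5b, and by Olfm4, Ly6g6c, Spdef and Slurp1, and 22 of its 23 cells also met the mucous rule. It held 4865 CPM of Olfm4, 1585 of Slurp1 and 18.5 of Lcn2, and 56.6% of all Olfm4 UMIs of Psca+ cells. Cluster 6 was led by Krt78, Spink5, Padi1, Krt15 and Evpl, with 11159 CPM of Krt13, 5859 of Lypd2 and no Lcn2 UMI, where 3 counts would be 42.0 CPM. In cluster 2, 31 of 43 cells had at least 10 UMIs of Krt5 and Krt14. Its Krt14 level of 16967 CPM rested on a few cells: the median was 11 UMIs per cell, and 5 cells of the cluster held 54.9% of all Krt14 UMIs of Psca+ cells. Haemoglobin genes also led cluster 2, and 98.3% of the Hbb-bs UMIs of Psca+ cells came from 5 cells. All 5 Psca+ cells that were among the highest doublet scores of the library lay in cluster 2. Whether 2 cells in a droplet made part of this cluster was not tested beyond that score.

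**Figure D3:**
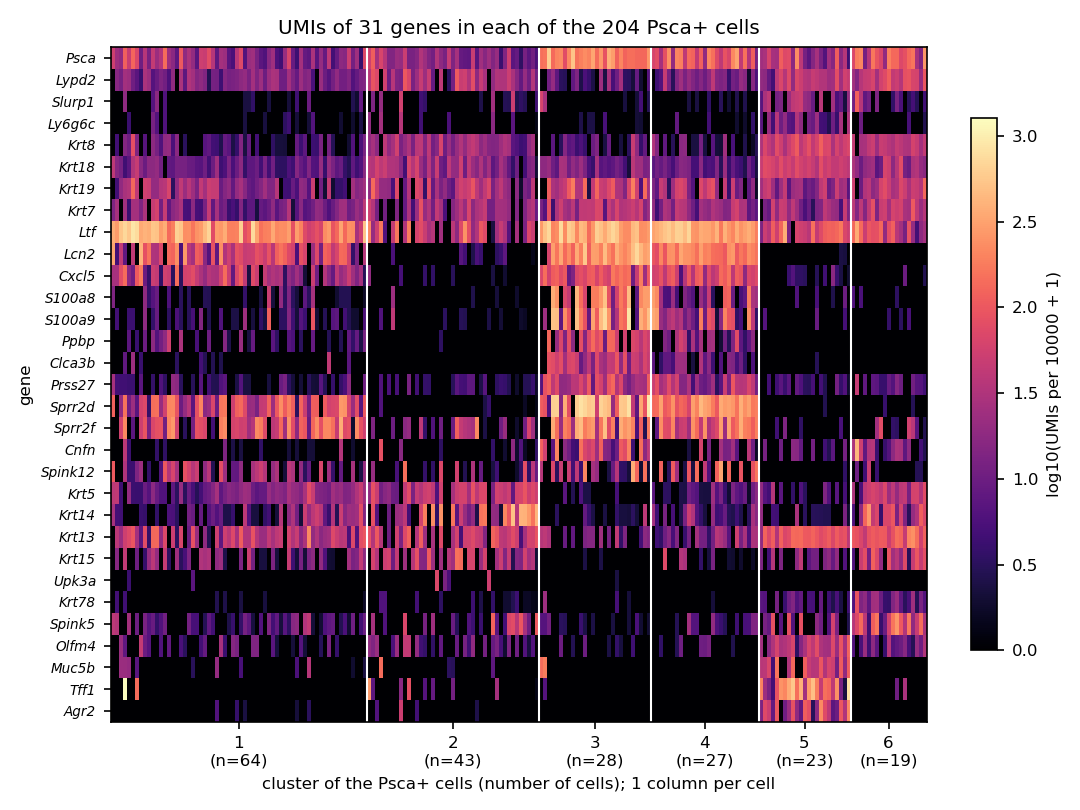
UMIs per 10000 of 31 genes in each of the 204 Psca+ cells, on a log10 scale with 1 added, ordered by cluster. Columns are cells and white lines part the 6 clusters. Lcn2, Cxcl5, Sprr2d and Sprr2f fill clusters 1, 3 and 4, S100a8, Ppbp and Clca3b are strongest in cluster 3, and Muc5b, Tff1, Agr2 and Olfm4 in cluster 5.

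Lcn2 and the mucous genes seldom reached their cutoffs in the same Psca+ cell. A cutoff of 3 Lcn2 UMIs was set after seeing the values and put beside the mucous cutoff of 10 UMIs. Of the 204 cells 1 met both, 112 met the Lcn2 cutoff alone, 33 the mucous cutoff alone and 58 neither. After thinning to 2000 UMIs, which kept 194 cells, these counts were 0, 102, 24 and 68. Of the 34 Psca+ cells that met the mucous rule, 29 had no Lcn2 UMI. The same held among the 65 progesterone cells that met the Psca rule, with 1 cell meeting both cutoffs, 36 the Lcn2 cutoff alone, 16 the mucous cutoff alone and 12 neither. Among the 1768 cells of the mucous set 11 reached 3 Lcn2 UMIs, with a highest value of 9.

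**Figure D4:**
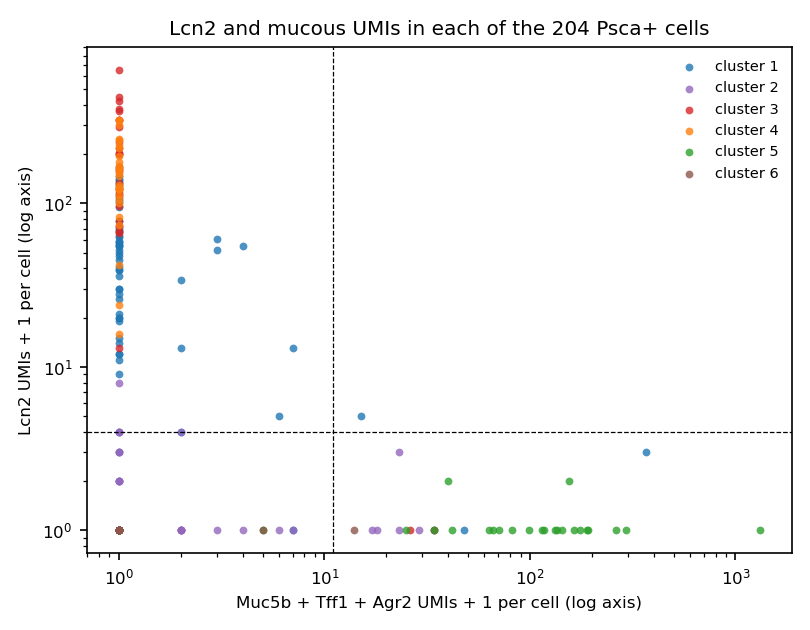
UMIs of Lcn2 against the sum of Muc5b, Tff1 and Agr2 in each of the 204 Psca+ cells, both with 1 added and on log axes, coloured by cluster. Dashed lines mark 3 Lcn2 UMIs and 10 mucous UMIs. The upper right field holds 1 cell, and the cells of cluster 4 and most of cluster 3 lie towards the left edge while those of cluster 5 lie along the bottom, with 2 cells of cluster 3 beside them.

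Levels also differed with the amount of Psca, which is a gene of the rule, so they are given as a description. Lcn2 stood at 4219 CPM in the 33 cells with 3 to 4 Psca UMIs, 4199 CPM in the 37 cells with 5 to 9 and 12105 CPM in the 134 cells with 10 or more. Prss27 stood at 234, 245 and 1917 CPM in the same order, and Lypd2 at 2054, 2013 and 1979.8 CPM. Median depth differed between these groups as well, with 5455, 4590 and 6600 UMIs. The 93 cells with at least 10 basal keratin UMIs held 6866 CPM of Sprr2d and 5340.1 of Lcn2, and the other 111 cells 19428 and 15541 CPM. Cnfn parted them further, with 352 and 2286 CPM. Krtdap went the other way, with 207 CPM in the 93 cells and 12.2 CPM in the 111. Median depth was 7588 UMIs in the 93 cells and 4790 in the 111, so a cutoff in UMIs also parts cells by depth. The 104 cells with an Olfm4 UMI held 2987 CPM of Lypd2 and 6437 of Sprr2d, and the 100 cells without one 1156 and 17356 CPM. Their median depths were 5114.5 and 6806 UMIs.

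The rule cuts through a continuous range. Of the Psca+ cells 16 had exactly 3 Psca UMIs, while 24 cells outside had 2, with all else as in the rule. Lcn2 stood at 5586 CPM in the 16 and 3181 CPM in the 24, and Lypd2 at 1805 and 1349.9 CPM. On the keratin side 28 cells had exactly 3 UMIs of Krt8 and Krt18, and 18 cells outside had 2, with 11644 and 9941 CPM of Lcn2. In all 106 cells with at least 3 Psca UMIs had 0 to 2 UMIs of Krt8 and Krt18, and they held 20605 CPM of Sprr2d and 3462 of Cnfn. Another 23 cells were left out for 1 or more UMIs of a neutrophil gene. Psca+ cells held 49.4% of the Psca UMIs of the filtered control library.

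The same rule found a smaller share of cells in the progesterone mice. The 65 progesterone cells that met the Psca rule held 86.4% of the Psca UMIs of their filtered library. The share was 4.29% in the control and 0.705% in the progesterone library, and the control share was the higher one under each of the alternatives tried, which ran from 2.33 to 5.29% in the control and from 0.281 to 1.15% in the progesterone library. A pool gives 1 value per group, so this difference has no replicate check, and a change in the share of other cells would move it too. The keratin limit also selected less in the progesterone library. At least 3 Krt8 and Krt18 UMIs were held by 51.2% of its filtered cells and by 15.8% of the control cells. Of 74 progesterone cells with at least 3 Psca UMIs 65 met the rule, against 204 of 348 in the control. The 2 sets are therefore not like-for-like luminal sets. Of 7133 genes tested between these 2 sets, 5.29% were at least 2-fold higher and 5.99% lower in the control Psca+ cells.

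Few of the defence genes were 2-fold apart between the 2 sets of Psca+ cells. Among 14 antimicrobial genes 1 was higher and 1 lower in the control, among 10 chemokines and cytokines 1 and 1, and among 14 columnar genes none and 1. The medians were -0.26, -0.38 and -0.08, against -0.04 over all genes. The higher antimicrobial gene was Reg3g, whose UMIs all came from 1 cell. Of the 14 antimicrobial genes, 8 had a ratio interval below 1 and 1 had one above 1. Lcn2 stood at 11179 CPM [10919 to 11445] in the progesterone cells and 9793 CPM [9625 to 9964] in the control cells, a ratio of 0.876 [0.851 to 0.902]. Cxcl5 had a ratio of 0.986 [0.938 to 1.04] and S100a9 one of 0.978 [0.936 to 1.02]. Prss27 was 1.83-fold [1.71 to 1.96] lower in the control cells.

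Cornified genes were higher in the control cells. Of 17 tested 11 were at least 2-fold higher and 1 lower, with a median log2 ratio of 1.22. Cnfn was 11.7-fold [9.08 to 15.2] higher, Sprr2b 6.07-fold [5.22 to 7.08] and Sprr2d 2.96-fold [2.84 to 3.09], while Lce3a was the lower gene with 4 UMIs in the control and 36 in the progesterone cells. Spink5 was 12.5-fold [9.95 to 16.01] higher and the keratin Krt6b 10.99-fold [8.45 to 14.6] higher. Of 10 Ly6 genes 4 were higher and none lower, with a median of 0.74: Slurp1 was 9.34-fold [6.09 to 15.1] higher, Ly6g6c 10.8-fold [5.76 to 22.8], Lypd3 2.92-fold [1.94 to 4.57] and Lypd2 2.26-fold [2.06 to 2.48]. For Sprr2b the direction rested on the cells rich in S100a8 and S100a9, since the log2 ratio was -1.19 without them.

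Interferon-stimulated genes were lower in the control cells, in 7 of 8 tested, with a median log2 ratio of -2.39. Ifit3 was 16.5-fold [9.44 to 31.2] lower, Isg15 7.77-fold [6.31 to 9.63] lower and Ifit1 5.26-fold [3.93 to 7.104] lower. By the interval bound nearest to 1 Clca1 ranked first among the lower genes, at 76.98 CPM [62.7 to 93.5] in the control cells and 3984 CPM [3829 to 4144] in the progesterone cells, 51.8-fold [42.4 to 63.8] lower. In the 48 progesterone cells that met the Psca rule and not the mucous rule, Clca1 stood at 858 CPM [779.9 to 943]. The mucous set held 4974 CPM of Clca1 and made up 19.2% of the filtered progesterone cells. Droplets that should lack these RNAs were read in the control library only, so the part of free RNA in this level was not tested. Cldn10 was 14.7-fold [8.68 to 26.6] lower in the control cells and Prss22 4.06-fold [3.56 to 4.64] lower. Esr1 and Pgr had ratios of 0.824 [0.587 to 1.17] and 0.793 [0.466 to 1.37]. The 5 receptor and response genes that could be tested were all within 2-fold, with a median of -0.59. Fewer genes could be tested here because the 65 cells held 624004 UMIs, against 1312043 in the 204 control cells.

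**Figure D5:**
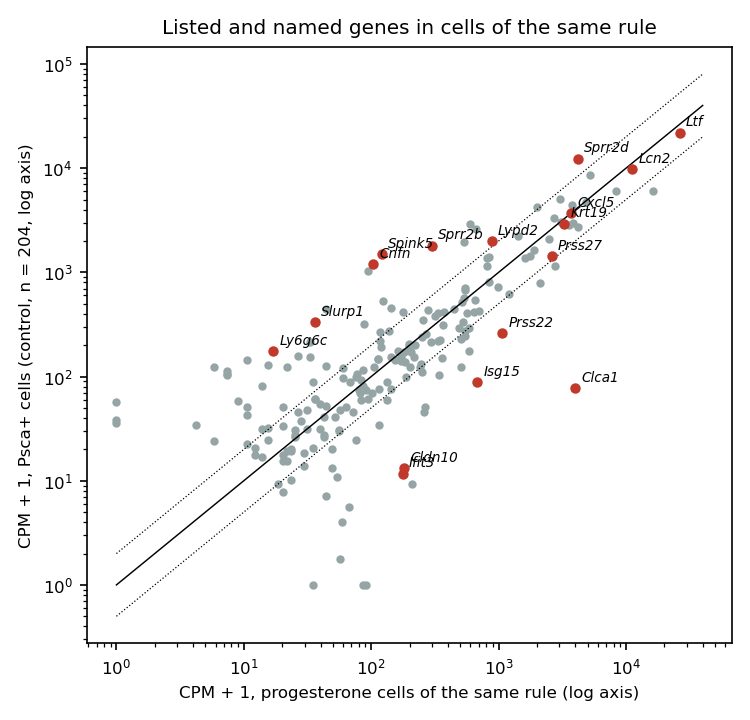
Levels of the listed and named genes with at least 20 UMIs in the 204 control Psca+ cells against the 65 progesterone cells that met the same rule, as CPM with 1 added on log axes. The solid line marks equal levels and the dotted lines 2-fold. Ltf, Lcn2, Cxcl5 and Krt19 lie near the solid line, Cnfn, Spink5, Slurp1 and Ly6g6c lie above it, and Clca1, Isg15, Ifit3 and Cldn10 below it.

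Control cells that met the mucous rule were few. They numbered 72 of 4760, a share of 1.51% [1.19 to 1.90], of which 34 were Psca+ cells. In those 34 Psca+ cells Olfm4 stood at 3642 CPM [3344 to 3960.3] and Clca1 at 425 CPM [328 to 543], and in the 38 others at 3426 CPM [3149 to 3721] and 521 CPM [417 to 644]. Both levels overlapped within counting error. Slurp1 did not, with 1449 CPM [1263 to 1655] in the 34 and 752 CPM [625 to 896] in the 38.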

How the data were processed

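Droplet libraries (10x Genomics 3′ kit) of cervix cells from 9 pooled mice per group gave 2 libraries. The authors deposited whole-number UMI counts of each gene in each barcode, which they made with Cell Ranger 3.0.2 on mouse build mm10, per the submitters' processing notes. Alignment settings and the gene annotation were not given in the sources used here. Positions come from GENCODE mouse release M21, on the same build.

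The cell filter asked for 200 genes or more and a mitochondrial share of 20% or less. The cells, the markers and the 14 gene lists were chosen with earlier results of these data known, so no pattern here is independent support. Doublets were not removed, since the rule has no such step. Scrublet scores (scanpy 1.11.5) were computed and the highest 0.8% per 1000 cells left out as an alternative. Counts were summed over the cells of a set and scaled to 1000000. Levels have exact Poisson intervals, shares exact Clopper-Pearson intervals and ratios exact conditional binomial intervals, at 95%. PCR duplicates are removed by UMIs, so the intervals cover counting of molecules only. A log2 ratio had 0.5 counts added to both sums, and a fold against 0 counts uses a floor of 3 counts per set. The counting script was tested on simulated data.

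Genes named besides the lists were the 12 highest and 12 lowest of a comparison by the interval bound nearest to 1, with at least 100 UMIs in the higher set and outside the rule, mitochondrial and ribosomal genes. The third comparison took up this rule after the first results were seen, and cluster examples, Ifitm, Arg1, Gsto1 and uroplakin genes were chosen after their values were seen. The lists were Ly6 family, columnar epithelium, antimicrobial and iron, mucus, transmembrane mucins, proteases and inhibitors, neutrophil chemokines, steroid receptors and response, progenitor and lineage factors, cornified, class II, interferon-stimulated, proliferation and dissociation stress. The counts of the chemokine list leave out Il36a and Il36g, which no symbol matched, and Il1f6, an older symbol of Il36a. Clusters used 2000 variable genes, 20 components, 15 neighbours and Leiden resolution 0.5 (igraph 0.11.9).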

Additional observations from a re-analysis of the deposited data

How the results depend on the processing

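The share of cells that met the rule moved by more than its counting interval with the rule itself. With at least 5 or 10 Psca UMIs it was 3.59 and 2.82% in the control library and 0.499 and 0.336% in the progesterone library, and with at least 2 it was 1.15% in the progesterone library. With 10 or more Krt8 plus Krt18 UMIs it was 2.39 and 0.542%, with at most 2 UMIs of S100a8 and S100a9 2.73 and 0.499%, without cells that had 10 basal keratin UMIs 2.33 and 0.499%, and without cells that met the mucous rule 3.57 and 0.521%. Read on cells thinned to 2000 UMIs it was 3.26 and 0.281%, and with 500 genes and 10% mitochondrial UMIs as limits 5.29% in the control. Counts of genes moved with the limits set on them, by construction. For genes higher and lower than in the basal squamous set they were 964 and 1451 with a minimum of 100 UMIs, 2691 and 5736 with a minimum of 1 UMI, and 852 and 448 when the interval bound had to pass 2-fold, against 1552 and 2394, so the excess of lower genes turned around with that bound. For the mucous set they were 442 and 1688, 1796 and 6429, and 477 and 557, against 781 and 3000. For the 65 progesterone cells they were 89 and 51, 2299 and 2663, and 75 and 56, against 377 and 427. Without cells that had 10 basal keratin UMIs 3601 genes were lower than in the basal squamous set, with at least 10 Psca UMIs 579 were higher than in the progesterone cells, and with the thinned rule 228 were lower; the cause of these was not tested. Leaving the 20 most abundant genes, mitochondrial and ribosomal genes out of the totals moved the median log2 ratio of all genes against the basal squamous set by -0.19, and by -0.08 and -0.04 in the other comparisons.

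Of 241 values of genes named in the text, 181 were past 2-fold and 9 of these changed the sign of their log2 ratio under an alternative, 3 with an interval that spans 0 (Il1b, S100a8 against the mucous set and Clca3b). With at most 2 UMIs of S100a8 and S100a9 the log2 ratios of S100a8 and S100a9 were -2.92 and -2.95 against the basal squamous set and -0.55 and -0.60 against the mucous set, that of Sprr2b -0.43 against the basal squamous set and -1.19 against the progesterone cells, and that of Clca3b 0.34 against the progesterone cells. Krtdap was at -1.31 against the mucous set without cells that had 10 basal keratin UMIs, and Il1b at 0.040 against the basal squamous set without the limit on neutrophil genes. Both exclusions of cells that met 2 rules at once, and every alternative for the progesterone cells of the same rule, were chosen after seeing the data. No paired analysis was possible because each group is 1 library with no replicate.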

Other observations

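Uroplakin genes, which encode the plaque proteins of the urinary tract lining, were read in a small part of the Psca+ cells. Upk1a stood at 90.7 CPM [75.1 to 109] and Upk3a at 56.4 CPM [44.3 to 70.8] over all Psca+ cells, and in cluster 2 at 335 CPM [271 to 409.7] and 243 CPM [189 to 308]. Upk3a was read in 7 of the 204 cells, and 5 of them held 97.3% of its UMIs, with a highest value of 35. In the basal squamous set Upk1a was at 1.87 CPM and Upk3a had no UMI. Cluster 6 held 252 CPM of Upk1a and no Upk3a UMI. In the mucous set Upk1a was as high as in all Psca+ cells, at 81.7 CPM, while Upk3a had 1 UMI.

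Ifitm1, Arg1 and Gsto1 were abundant in both sets of Psca+ cells and outside every list. Here Ifitm1 is compared with the mucous set only, Arg1 with the basal squamous set only and Gsto1 with neither. Ifitm1, an interferon-induced membrane protein gene, stood at 3298 CPM in the control and 2697 in the progesterone Psca+ cells, against 25.5 CPM in the mucous set. Of the Ifitm1 UMIs of control Psca+ cells, 68.2% came from cluster 1 and 26.5% from cluster 4. Arg1 (arginase 1) stood at 1621 and 1909 CPM, against 65.2 in the basal squamous set. Gsto1, a glutathione transferase gene, stood at 6058 CPM in the control and 16303 in the progesterone Psca+ cells, 2.69-fold [2.61 to 2.77] lower in the control. Of the control Psca+ clusters, 3 and 4 held the most Gsto1, with 11631 and 11764 CPM, and cluster 2 the least, with 843 CPM.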
